A study of Mus musculus with 6 samples.

Results

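The genes described here encode the machinery that imports proteins into mitochondria, and their transcripts were followed in articular cartilage of knockout (KO) and wildtype male mice, all aged 18 months. Members were taken by name from the deposited gene table: every gene whose symbol begins with Timm or Tomm, plus Samm50, Mtx1, Mtx2, Pam16, Dnajc19, Grpel1, Pmpca, Pmpcb and Chchd4, with names containing "-ps" left out. The rule took 36 of 34709 genes, and 33 of them reached a mean of 0.5 FPKM (a level corrected for transcript length and library size, which can be set side by side between genes), as did 15373 genes of the whole table. The other members were the antisense RNA Tomm6os, with a mean of 0.474 FPKM just under that limit, and Timm8a2 and Tomm20l, which were nearly undetected. The lowest member above the limit was Timm17a, with a mean of 2.91 FPKM.

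The series holds 6 RNA sequencing libraries, 3 labelled KO and 3 labelled wildtype, and asks how loss of 1 gene changes expression in this tissue. The study's methods describe KO mice on the C57BL/6J background with male wildtype littermates, without any other treatment for these animals. Whether a library was made from 1 animal or from pooled animals is not stated, so the spread between libraries may be in part technical. KO replicates 2 and 3 differed far less from each other than any other pair of libraries. Over the members, their median absolute log2 difference was 0.0564, against 0.0988 to 0.197 for every other pair. They were therefore averaged and counted as 1 sample, which left 2 KO and 3 wildtype samples, and the 6 libraries as labelled stand beside that comparison.

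The tissue was checked against marker genes before the members were read. Of 12 chondrocyte markers, 10 reached 0.5 FPKM, led by Prg4, Chad and Comp, and Matn3 and Col9a1 did not. Their summed level was 1465, 657 and 667 FPKM in KO replicates 1 to 3 and 645, 861 and 777 in wildtype replicates 1 to 3. Blood-forming cells were abundant in the same libraries. Neutrophil markers summed to between 50833 and 62279 FPKM in KO and between 26948 and 43667 in wildtype, with 10 of 10 measured markers higher in KO. Erythroid markers summed to between 11656 and 27222 FPKM in KO and between 33021 and 48599 in wildtype, with 9 of 9 lower in KO. B cell markers summed to between 97.7 and 146 FPKM in KO and between 297 and 334 in wildtype, with 10 of 10 lower. Adipocyte markers summed to between 19.6 and 44.6 FPKM in KO and between 64.9 and 124 in wildtype, with 4 of 4 tested markers lower and a median log2 difference of -2.82. T and NK cell markers summed to between 91.7 and 112 FPKM in KO and between 69.4 and 82.4 in wildtype, although 6 of the 7 were lower in KO. The summed level of each of these 5 lists separated the groups, and its part in the results below was not tested. Skeletal muscle markers did not separate the groups but varied widely between libraries. They summed to 187, 5.83 and 4.92 FPKM in KO replicates 1 to 3 and 43.4, 69.8 and 341 in wildtype replicates 1 to 3. Their part was not tested either. In bulk tissue, fewer cells of a type cannot be told apart from less RNA per cell.

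Almost all mitochondrial proteins are encoded in the nucleus, made in the cytosol and carried across the mitochondrial membranes by dedicated complexes. The TOM complex forms the entry gate of the outer membrane, and the SAM complex folds barrel-shaped proteins into that membrane. In the space between the membranes, small TIM chaperones escort hydrophobic cargo, and Chchd4 traps cysteine-rich proteins by oxidising them. The TIM23 complex and its PAM motor pull proteins with a cleavable targeting sequence into the matrix, where the processing peptidase removes that sequence, while the TIM22 complex inserts carrier proteins into the inner membrane.

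With edgeR, no import gene was called different between KO and wildtype cartilage. At an adjusted p under 0.05, 0 of the 33 members passed, and 0% of the 15373 genes tested did. At an unadjusted p under 0.05, 1 member passed, which was Tomm6 (higher in KO), against 13.7% of all tested genes, 7.63% being higher in KO. Most members were measured closely enough to bound the difference. The 95% interval of the log2 difference lay within 1 log2 unit of 0 for 31 of 33 members, the exceptions being Tomm6 and Timm10, and for 69.0% of tested genes. The log2 difference (KO minus wildtype throughout) was above 0 for 13 members and below 0 for 20, with a median of -0.049 beside -0.016 over all tested genes. Across members it ran from -0.50 (Timm10) to 0.64 (Tomm6), with adjusted p-values from 0.203 to 0.993.

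With the 6 libraries as labelled, edgeR also called 0 of 33 members, while it called 3.71% of all tested genes. At an unadjusted p under 0.05, 2 members passed, Timm10 and Timm17a, both lower in KO, against 22.2% of tested genes, 10.3% being lower in KO. In the 5 samples, DESeq2 called 1 member, Tomm6 (higher), and 5.72% of tested genes, 3.45% being higher in KO. It gave 2 members an unadjusted p under 0.05, against 16.1% of tested genes. Over the 6 libraries, the FPKM values of the groups did not overlap for 4 members: Mtx1 was higher in KO, and Timm10, Timm17a and Mtx2 were lower. Of all tested genes, 25.0% did not overlap, 11.3% being higher and 13.7% lower in KO. In the 5 samples the FPKM of Tomm6 was also higher without overlap, which made 5 members, against 28.6% of tested genes, 12.5% being higher in KO. By log2 CPM (counts scaled to library size) over the 6 libraries, Mtx1 and Mtx2 overlapped, while Timm10 and Timm17a did not. The members' share was below that of the whole table for each of these counts of called or non-overlapping genes except that of edgeR's adjusted p in the 5 samples, where both were 0.

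**Figure D1:**
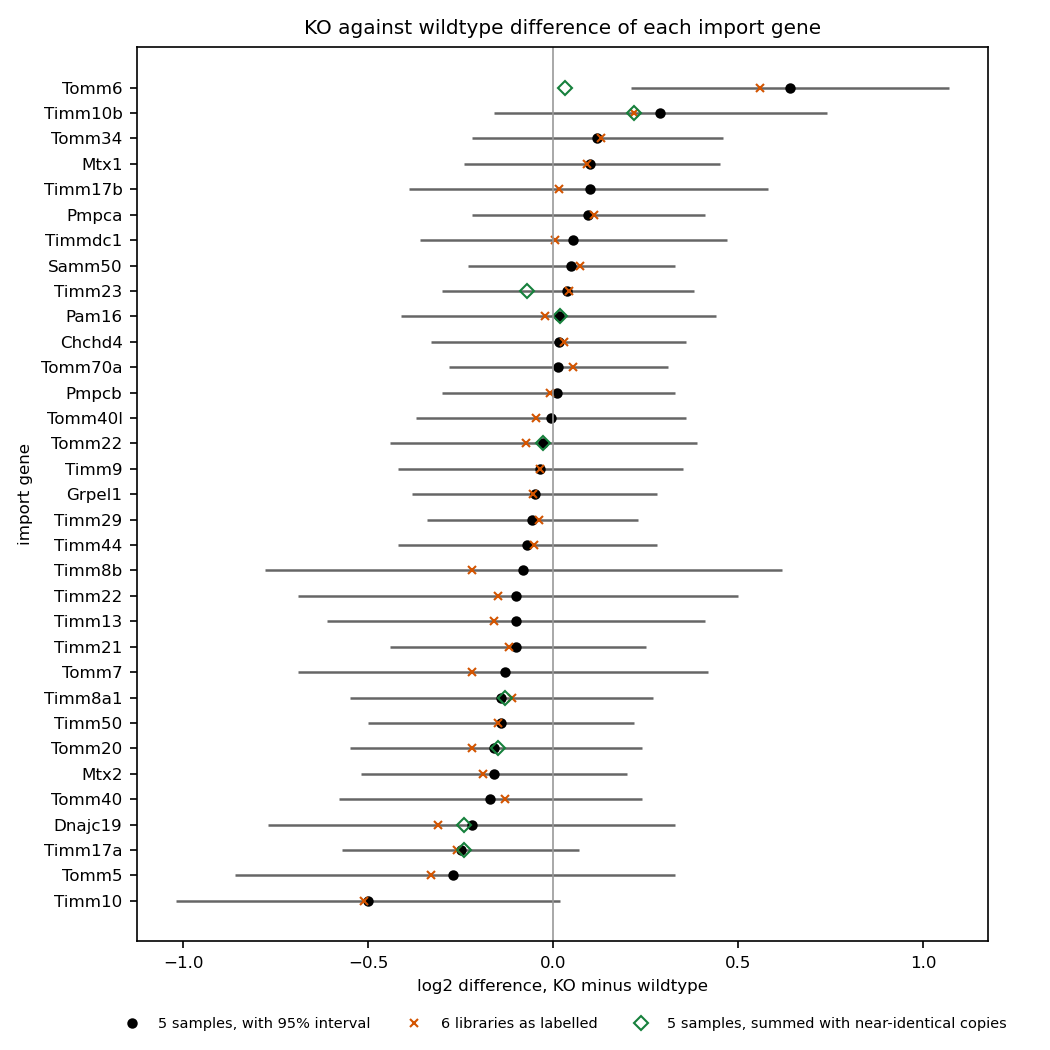
Log2 difference between KO and wildtype for each of the 33 import genes, sorted by size (x axis, log2 units). Black points with bars are the 5-sample comparison with its 95% interval, crosses the 6 libraries as labelled, and open diamonds the 5-sample value after a gene's counts were summed with those of its near-identical copies. Most intervals cross 0 and stay within 1 log2 unit, and the open diamond of Tomm6 sits at 0.032 while its black point is at 0.64.

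In wildtype cartilage the import transcripts covered a wide range of levels. Tomm22, the receptor of the TOM complex that hands cargo to the channel, was highest at 55.8 FPKM ± 7.96 (SD, n = 3). Timm8b followed at 48.7 ± 11.1, Tomm5 at 45.5 ± 11.5, Tomm7 at 35.1 ± 7.06 and Timm13 at 28.0 ± 5.36 FPKM. Timm23 came next at 18.5 ± 1.54 and Tomm20 at 18.1 ± 1.50 FPKM. The lowest were Chchd4 at 3.45 ± 0.182, Timm17a at 3.17 ± 0.0241 and Timm9 at 3.10 ± 0.280 FPKM. The order was resolved at few places. Of the 32 pairs of neighbours in it, 5 had wildtype values that did not overlap: Timm13 above Timm23, Tomm20 above Tomm6, Tomm34 above Tomm70a, Pam16 above Chchd4, and Chchd4 above Timm17a.

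The members also differed in how evenly wildtype libraries expressed them. The coefficient of variation over the 3 wildtype libraries had a median of 9.04% and ran from 0.760% for Timm17a to 25.4% for Timm22. Over tested genes at least as high as the lowest member, the median was 10.4%. The 7 members whose longest coding transcript is under 1200 bases had a median of 14.7%, against 8.71% for the other 26. The sets overlapped: the short one held Tomm5 (25.2%), Timm8b (22.9%) and Tomm7 (20.1%) but also Pam16 (3.75%), Tomm6 (5.92%) and Timm23 (8.32%), and Timm22 was in the long one. Wildtype replicate 2 was the highest wildtype library for 17 of the 33 members.

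**Figure D2:**
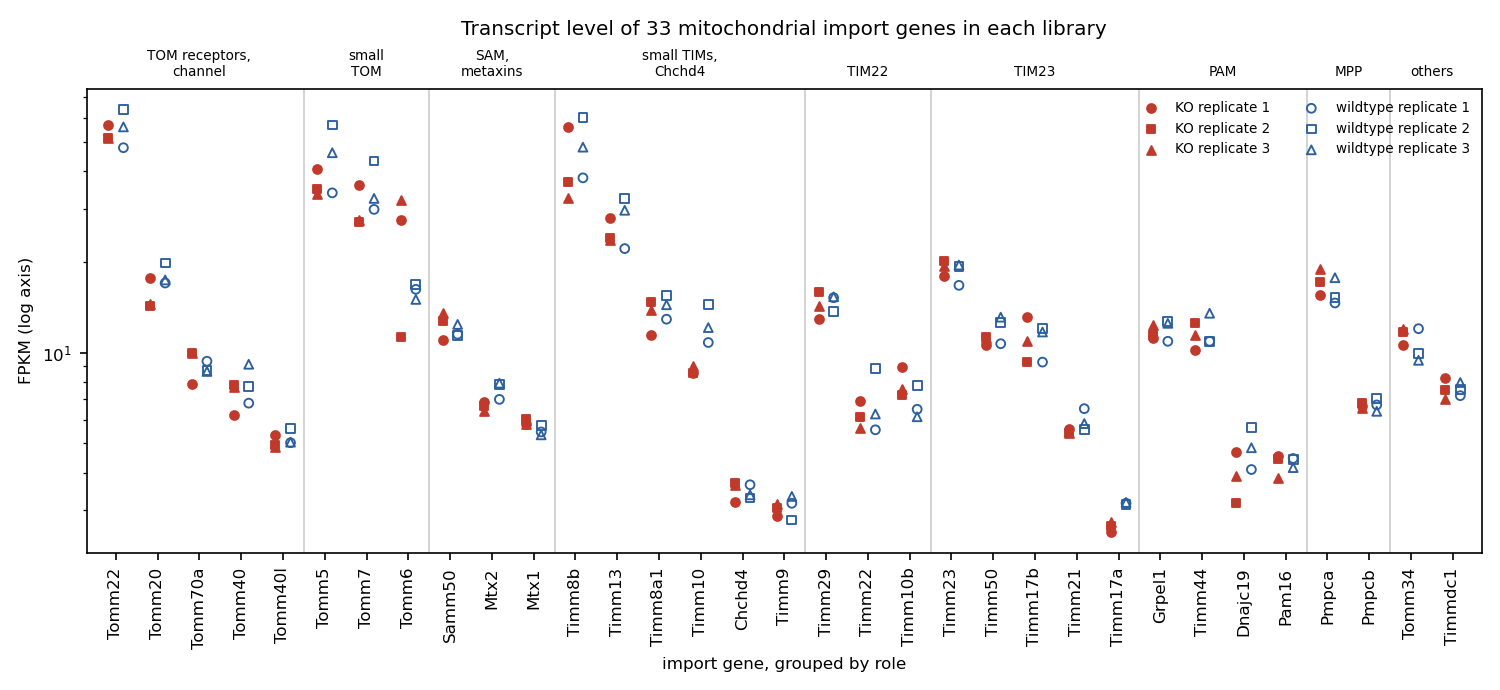
FPKM of each import gene (y axis, log scale) in each library, with genes grouped by role from left to right. Filled red symbols are KO libraries and open blue symbols wildtype libraries. KO and wildtype symbols overlap for most genes, and Timm10 and Timm17a are among those where they do not.

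Among the TOM receptors and channel, 1 of 5 members was higher in KO and 4 were lower, by log2 differences between -0.17 and 0.014. Tomm22 stood at 56.8, 51.3 and 51.2 FPKM in KO replicates 1 to 3 and at 47.7, 63.7 and 55.9 in wildtype replicates 1 to 3. The KO values all fell inside the wildtype range, and the log2 difference was -0.028 ± 0.176 (SE). Tomm40, the barrel that forms the pore, had the smallest p-value in this set. It measured 6.19, 7.79 and 7.67 FPKM in KO and 6.80, 7.71 and 9.15 in wildtype. The ranges overlapped, and the log2 difference was -0.17 ± 0.173 (adjusted p = 0.765), with -0.28 when wildtype replicate 1 was left out and -0.043 when wildtype replicate 3 was. Its paralog Tomm40l measured 5.34, 4.96 and 4.87 FPKM in KO and 5.03, 5.60 and 5.05 in wildtype, with a log2 difference of -0.0066 ± 0.155. Tomm40 made up 57.4% ± 5.27 of the pair's summed FPKM in KO (SD, n = 2) and 60.0% ± 3.89 in wildtype (n = 3). The presequence receptor Tomm20 and the chaperone-docking receptor Tomm70a had log2 differences of -0.16 and 0.014.

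The small TOM subunits Tomm5, Tomm6 and Tomm7 stabilise the TOM complex. Tomm5 was the highest of them, at 40.6, 34.9 and 33.5 FPKM in KO and 33.8, 56.7 and 45.9 in wildtype. The KO values lay in the lower part of a wide wildtype range or just below it, and the log2 difference of -0.27 ± 0.252 had an adjusted p of 0.743. It was -0.46 without KO replicate 1 and -0.043 without wildtype replicate 2. Tomm7 had a log2 difference of -0.13 ± 0.235.

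Tomm6 was the member furthest from 0 in the comparison, and its 2 nearly identical KO libraries disagreed on it. It measured 27.5, 11.3 and 32.0 FPKM in KO replicates 1 to 3 and 16.2, 16.8 and 15.0 in wildtype. KO replicates 1 and 3 were above every wildtype library, while KO replicate 2 was below them all. The log2 difference was 0.64 ± 0.181 (95% interval 0.21 to 1.07, adjusted p = 0.203), and it was 0.32 without KO replicate 3 and 0.91 without KO replicate 2. With the 6 libraries as labelled it was 0.56 ± 0.349 (adjusted p = 0.402), and DESeq2 called it in the 5 samples at an adjusted p of 0.0320. Of the 28 members with a mean of at least 5 FPKM, Tomm6 was the 1 that differed by more than 1 log2 unit between KO replicates 2 and 3, as did 20 of 7614 genes at that level.

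The position of Tomm6 (minus strand of chromosome 17, 47686646 to 47688183, GRCm38) is shared with another gene. Gm21981, on the same strand at 47686739 to 47694455, covers most of Tomm6 and runs across Prickle4, and its annotated transcripts hold 656 bases identical to Tomm6. Its FPKM was 4.76, 10.4 and 3.39 in KO and 8.20, 10.8 and 8.67 in wildtype. Among the KO libraries it was high where Tomm6 was low, while in wildtype both were highest in replicate 2. Tomm6 took 70.6%, 31.1% and 79.7% of the counts assigned to the pair in KO replicates 1 to 3, and 45.1%, 39.4% and 41.8% in wildtype. The summed counts were 2574, 2896 and 3203 in KO and 2685, 2921 and 2577 in wildtype, with no gap between KO replicates 2 and 3 of the size seen for Tomm6 alone. Fitted as 1 gene, the sum had a log2 difference of 0.032 ± 0.153 (95% interval -0.33 to 0.39, adjusted p = 0.971). The value of Tomm6 alone lay outside that interval. The summing was chosen after the values were seen.

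**Figure D3:**
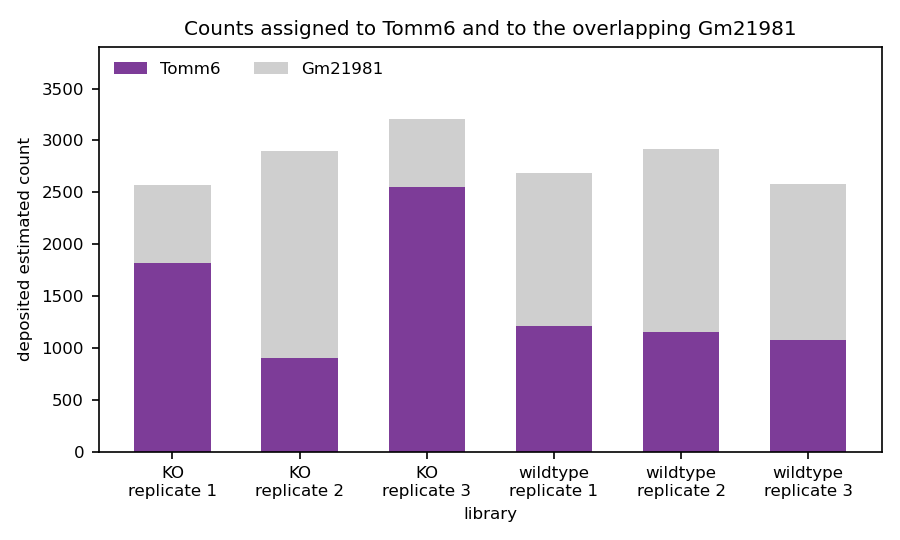
Deposited estimated counts of Tomm6 (purple) and of the overlapping Gm21981 (grey), stacked, for each library (y axis, counts not scaled to depth). The Tomm6 segment is 1817, 902 and 2553 in KO replicates 1 to 3, while the whole bars lie between 2574 and 3203 in all 6 libraries.

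The SAM complex was represented by Samm50, its barrel-shaped core, and the metaxins Mtx1 and Mtx2, which sit beside it on the cytosolic side. Samm50 measured 11.0, 12.7 and 13.5 FPKM in KO and 11.5, 11.4 and 12.4 in wildtype, with a log2 difference of 0.048 ± 0.119. Mtx2 measured 6.86, 6.66 and 6.41 FPKM in KO and 7.00, 7.82 and 7.92 in wildtype. Every KO value was below every wildtype value by FPKM, but by a small margin, and the log2 difference was -0.16 ± 0.152 (adjusted p = 0.748). By log2 CPM relative to the wildtype mean the groups overlapped, with -0.07 in KO replicate 1 and -0.16 in wildtype replicate 1. Mtx1, given here because its groups also did not overlap by FPKM, went the other way at 5.79, 6.01 and 5.82 FPKM in KO and 5.46, 5.73 and 5.34 in wildtype. Its log2 difference was 0.10 ± 0.147 (adjusted p = 0.848). By log2 CPM it overlapped too, with 0.04 in KO replicate 3 and 0.11 in wildtype replicate 2.

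Timm10 was the lowest member relative to wildtype. It pairs with Timm9 in the ring that carries hydrophobic precursors across the intermembrane space. Its level was 8.59, 8.56 and 9.03 FPKM in KO and 10.8, 14.4 and 12.1 in wildtype, so all KO libraries lay below all wildtype libraries and close together. The log2 difference was -0.50 ± 0.221 (0.706-fold, 95% interval 0.492 to 1.01, adjusted p = 0.384). With the 6 libraries as labelled it was -0.51 (adjusted p = 0.136). Wildtype replicate 2 was the highest library, and without it the log2 difference was -0.35.

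For its partner Timm9 the groups overlapped. It measured 2.87, 3.05 and 3.16 FPKM in KO and 3.17, 2.79 and 3.34 in wildtype (log2 difference -0.036 ± 0.163). The ratio of Timm10 to Timm9 was 2.92 ± 0.116 in KO (SD, n = 2) and 4.06 ± 0.952 in wildtype (n = 3), and the libraries of the groups did not overlap, as for Timm10 itself. Of the 7 ratios between partners that were computed, 2 did not overlap, the other being Tomm22 to Tomm20 (3.40 ± 0.236 in KO, 3.08 ± 0.232 in wildtype). That one was apart by a very small margin, with 3.23 in KO replicate 1 and 3.22 in wildtype replicate 2. Against its relative Timm10b, a TIM22 subunit of the same fold, Timm10 made up 48.9%, 54.2% and 54.4% of the summed FPKM in KO and 62.4%, 65.0% and 66.4% in wildtype, the 1 of 4 paralog shares without overlap. With 2 KO samples against 3, an exact permutation test of such a ratio could not reach p below 0.1, and none was run. Timm10b itself was at 8.97, 7.23 and 7.56 FPKM in KO and 6.49, 7.76 and 6.13 in wildtype, with a log2 difference of 0.29 ± 0.191 (adjusted p = 0.595). That difference was 0.081 without KO replicate 1 and 0.43 without wildtype replicate 2.

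**Figure D4:**
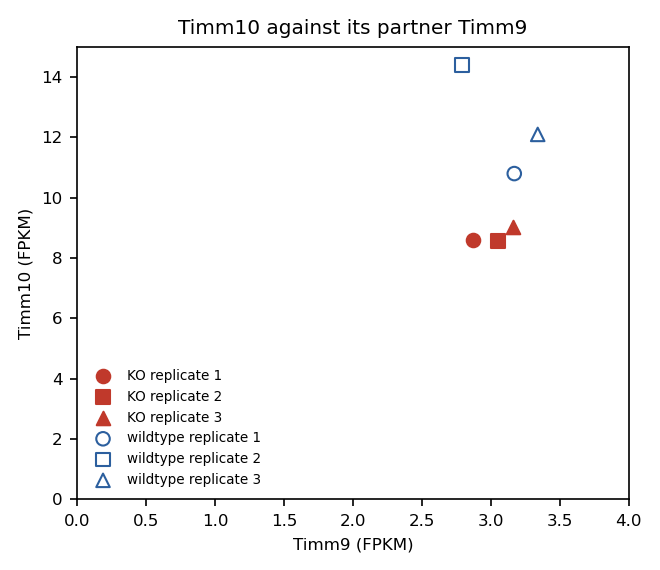
Timm10 against its partner Timm9 in each library, both axes in FPKM and starting at 0. KO libraries (filled red) lie between 8.56 and 9.03 FPKM of Timm10 and wildtype libraries (open blue) between 10.8 and 14.4, while the KO values of Timm9 lie inside the wildtype range.

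For the other small TIMs and Chchd4 the groups overlapped. Timm8b was the highest of the group at 55.8, 36.7 and 32.6 FPKM in KO and 37.9, 60.2 and 47.9 in wildtype. Its KO libraries spanned nearly the same range as wildtype, and the log2 difference was -0.081 ± 0.297. Timm8a1, which like Timm8b assembles with Timm13, measured 11.4, 14.7 and 13.8 FPKM in KO and 12.9, 15.5 and 14.4 in wildtype (log2 difference -0.14 ± 0.173). The share of Timm8a1 in the pair with Timm8b was 17.0%, 28.5% and 29.8% in KO and 25.4%, 20.5% and 23.2% in wildtype, with overlapping libraries. Timm13 and Chchd4 had log2 differences of -0.10 and 0.016. Of these 6 genes 5 were lower in KO, with a median log2 difference of -0.091.

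In the TIM22 complex, Timm29, a subunit that stabilises the translocase, measured 12.9, 15.9 and 14.3 FPKM in KO and 15.2, 13.7 and 15.3 in wildtype, with a log2 difference of -0.058 ± 0.121. The channel subunit Timm22 had a log2 difference of -0.10 ± 0.254.

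In the TIM23 complex, the channel subunit Timm23 measured 17.9, 20.1 and 19.3 FPKM in KO and 16.7, 19.3 and 19.5 in wildtype (log2 difference 0.037 ± 0.145). The channel partner Timm17 exists as a pair of paralogs, which gave different patterns. Timm17a measured 2.55, 2.67 and 2.74 FPKM in KO and 3.17, 3.14 and 3.19 in wildtype. The wildtype libraries were tightly grouped and all KO libraries were below them. The log2 difference was -0.25 ± 0.136 (0.840-fold, 95% interval 0.672 to 1.05, adjusted p = 0.490), and with the 6 libraries as labelled -0.26 (adjusted p = 0.198). Timm17b measured 13.1, 9.30 and 10.9 FPKM in KO and 9.30, 12.0 and 11.7 in wildtype, with full overlap and a log2 difference of 0.10 ± 0.207. The share of Timm17a in the pair was 18.8% ± 3.42 in KO (n = 2) and 22.5% ± 2.53 in wildtype (n = 3), with overlapping libraries. Timm50, the receptor of the complex, and Timm21, which links it to the respiratory chain, had log2 differences of -0.14 and -0.10.

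Of the PAM motor, Grpel1, the nucleotide exchange factor of the matrix chaperone Hspa9, measured 11.2, 11.4 and 12.3 FPKM in KO and 10.9, 12.7 and 12.5 in wildtype (log2 difference -0.049 ± 0.141). Dnajc19, a J-domain cochaperone, measured 4.70, 3.17 and 3.91 FPKM in KO and 4.10, 5.66 and 4.84 in wildtype. Its log2 difference was -0.22 ± 0.233 (adjusted p = 0.778), and it was -0.50 without KO replicate 1 and -0.066 without wildtype replicate 2. Pam16, which holds Dnajc19 in check, and Timm44, the anchor of the motor, had log2 differences of 0.016 and -0.070.

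The partner subunits of the matrix processing peptidase, Pmpca and Pmpcb, had log2 differences of 0.095 ± 0.135 and 0.011 ± 0.134. Pmpca measured 15.5, 17.1 and 18.9 FPKM in KO and 14.6, 15.2 and 17.7 in wildtype. The remaining members carry an import-type name but act elsewhere: Tomm34 is a cytosolic cochaperone and Timmdc1 an assembly factor of respiratory complex I. Tomm34 measured 10.6, 11.7 and 12.0 FPKM in KO and 12.0, 9.95 and 9.43 in wildtype (log2 difference 0.12 ± 0.144), and Timmdc1 had a log2 difference of 0.054.

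Averaged over the import genes, the KO libraries lay within the range of the wildtype libraries. The mean log2 level of the 33 members relative to wildtype, less that of all tested genes, was 0.048, -0.059 and -0.020 in KO replicates 1 to 3 and -0.15, 0.14 and 0.014 in wildtype replicates 1 to 3. All KO values fell between wildtype replicates 1 and 2. The 78 mitochondrial ribosomal protein genes gave the same picture, at 0.079, -0.076 and -0.070 in KO and -0.16, 0.15 and 0.014 in wildtype. The 85 nuclear genes for respiratory chain and ATP synthase subunits gave 0.13, -0.22 and -0.21 in KO and -0.24, 0.21 and 0.032 in wildtype. The median log2 difference was -0.039 for the ribosomal and -0.049 for the respiratory genes, beside the -0.049 of the import genes, and in these lists too 0 genes were called. Of the role groups, only Tomm34 with Timmdc1 separated the groups, at 0.15, 0.12 and 0.086 in KO and 0.014, 0.022 and -0.036 in wildtype. Neither gene did so alone. Before the level of all tested genes was subtracted, Tomm34 stood at 0.1, 0.13 and 0.17 in KO and 0.16, -0.01 and -0.15 in wildtype. Timmdc1 stood at 0.2, -0.04 and -0.15 in KO and -0.11, 0.05 and 0.06 in wildtype. Without wildtype replicate 2, the members' median was 0.046, and without KO replicate 1 it was -0.10.

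**Figure D5:**
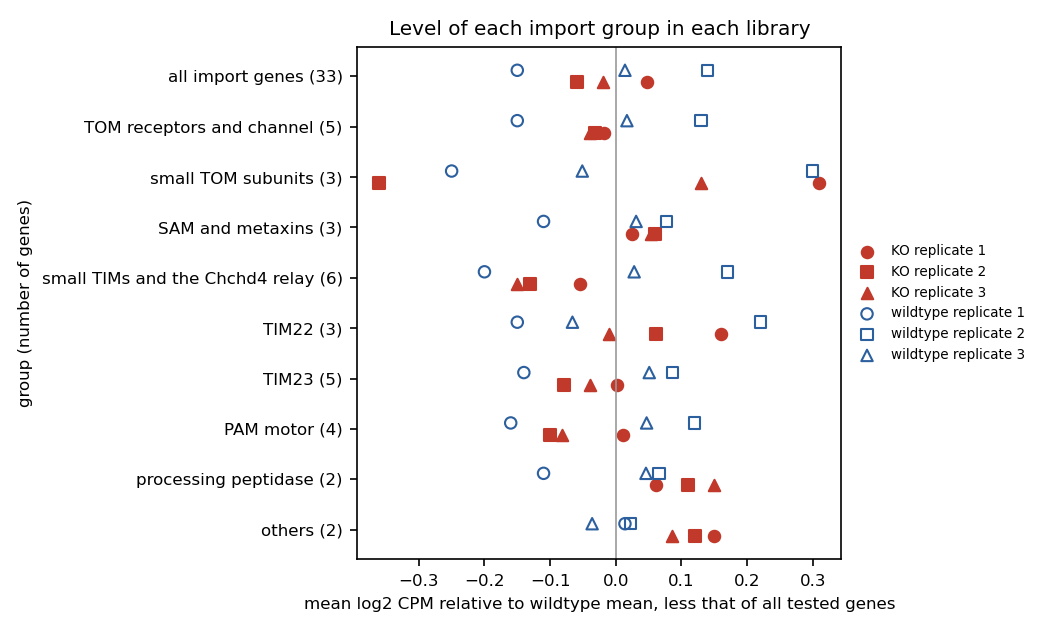
Mean log2 CPM (counts scaled to library size) of each import group relative to its wildtype mean, less the same mean over all tested genes (x axis), for each library. Filled red symbols are KO and open blue symbols wildtype libraries. Over all 33 import genes the KO libraries lie between -0.059 and 0.048, inside the wildtype range of -0.15 to 0.14.

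Other genes of the import pathway, outside the naming rule, were read from a list of 24 partners: matrix and cytosolic chaperones, further peptidases, the oxidase of the Chchd4 relay and the MICOS scaffold of the inner membrane. In the 5 samples 0 of 24 were called, 7 were higher and 17 lower in KO, and the median log2 difference was -0.088. Their mean log2 level, taken as above, was -0.072, -0.18 and -0.14 in KO and -0.10, 0.085 and 0.013 in wildtype, so KO replicates 2 and 3 lay below every wildtype library. The partner furthest from 0 was Chchd10, a twin-cysteine protein of the intermembrane space that is itself imported through Chchd4. It measured 6.87, 5.32 and 5.24 FPKM in KO and 12.5, 12.1 and 13.3 in wildtype, so every KO library was well below every wildtype library. The log2 difference was -1.03 ± 0.198 (adjusted p = 0.166). With the 6 libraries as labelled it was -1.11 and was called (adjusted p = 0.0358), the 1 partner of 24 for which this was so, beside the 3.71% of all tested genes. By FPKM over the 6 libraries, 4 partners were lower in KO without overlap and 0 higher, beside 13.7% and 11.3% of tested genes. The MICOS subunit Chchd3 (16.5, 17.1 and 17.1 FPKM in KO, 19.4, 21.2 and 20.7 in wildtype) and the matrix cochaperonin Hspe1 (44.8, 41.4 and 42.3 in KO, 45.0, 62.8 and 60.8 in wildtype) were among them, with adjusted p-values of 0.433 and 0.482. Hspe1 was apart by a very small margin. So was Apool, with 2.82 FPKM in KO replicate 1 and 2.84 in wildtype replicate 3. Hspa9, the matrix chaperone that powers the PAM motor, had a log2 difference of -0.13 ± 0.150.

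Several members share sequence with other annotated genes, so their levels carry an uncertainty that replicates do not show. For 9 members, counts were also summed with those of their near-identical copies (at least 200 bases at 95% identity or more). By that measure 14 members had a copy, and genes that overlap a member on the opposite strand were not summed. Timm23 had 5 such copies in the table, among them Gm10171, Gm10233 and Gm10273, with means of 10.5, 9.63 and 10.6 FPKM. Timm23 itself held 59.3% to 67.3% of the summed counts. Summed, its log2 difference went from 0.037 to -0.070 ± 0.133. Timm8a1 held 79.6% to 85.0% of the counts it shares with Gm9797, and Tomm20 91.9% to 93.3% of those it shares with Gm14494 and Gm15365. Timm17a held 97.0% to 99.2% with Gm7180, and its summed log2 difference was -0.24 ± 0.136. With copies summed, 0 of 33 members passed even at an unadjusted p under 0.05.

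Some members also share a start region with a gene on the opposite strand. For 10 of the 33 (30.3%), the annotated start lies within 1000 bases of the start of a coding gene pointing the other way, as it does for 16.0% of the 12461 tested coding genes. The starts of Timm8b and Sdhd, a membrane subunit of respiratory complex II, are 98 bases apart. The stretch that lies outside both genes in the deposited and the RefSeq positions is printed because it is the shared upstream sequence of a highly expressed import gene and of a respiratory gene (GRCm38.p6, RefSeq promoter, chr9:50603850-50603900, plus strand, all in lower case since no searched motif lies in it).
Timm8b and Sdhd: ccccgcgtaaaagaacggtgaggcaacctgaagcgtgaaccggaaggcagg
Sdhd measured 72.7, 75.6 and 79.8 FPKM in KO and 70.9, 80.7 and 71.3 in wildtype, so it varied far less between libraries than Timm8b across the same start region. Chchd4 starts 157 bases from Tmem43, which measured 19.9, 26.5 and 26.4 FPKM in KO and 17.6, 16.0 and 16.9 in wildtype, while Chchd4 did not separate the groups (3.21, 3.69 and 3.65 in KO, 3.65, 3.30 and 3.38 in wildtype). By FPKM, Entr1, beside Pmpca, was also higher without overlap (20.7, 18.7 and 19.6 in KO, 17.8, 18.2 and 17.2 in wildtype). As a share of all counts it overlapped, with 4736 of 63230848 in KO replicate 2 and 3959 of 52698599 in wildtype replicate 2. Arfip2, beside Timm10b, was lower without overlap by FPKM, by a small margin (6.17, 5.92 and 6.08 in KO, 6.48, 7.11 and 6.22 in wildtype). For the other neighbours, Parg, Stk4, 2700049A03Rik, Pqbp1, Frs3, Sdhd and Yipf2, the groups overlapped by FPKM. Of all tested genes, 11.3% were higher and 13.7% lower without overlap.

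Promoters of the members were searched for 3 fixed motifs on both strands, in windows of 300 bases (250 before and 50 after the RefSeq start, GRCm38.p6). Entries were found for 30 of the 33 members. The ETS-type motif ACTTCCGG (reverse complement CCGGAAGT) was present for 8 of the 30 members (26.7%), beside 8.76% of the 10371 tested genes with an entry. A gene counted if any of its entries held the motif. Of all 32851 promoter entries, each counted singly, 3.89% held it. The motif AAGATGGC, that of YY1, was in 2 of 30 (6.67%), beside 5.17% of tested genes, and the palindromic NRF1 motif was in 0 of 30, beside 2.18%. Windows around the ETS-type motif follow, with the motif in capitals and the strand of the gene read 5′ to 3′, since it was the searched motif with the largest share among the members. The window of Timm10, the member furthest below wildtype, is among them.
Timm10 (chr2:84827027-84827054, plus): agacttccttCCGGAAGTgacccacgtg
Mtx2 (chr2:74825777-74825804, plus): ggcggagcagCCGGAAGTgccggcgcgc
Pmpcb (chr5:21737134-21737161, plus): gagtcatgacCCGGAAGTacatctccac
Timm10b (chr7:105640470-105640494, plus): gtgagagtttACTTCCGGggcgact
Timm29 (chr9:21592499-21592526, plus): agctctgaccACTTCCGGgctccactca
Timm23 (chr14:32201922-32201949, minus): cgcgcttcccACTTCCGGgccgcacaca
Timmdc1 (chr16:38522791-38522818, minus): ccgccaactcACTTCCGGggctcgactg
Tomm70a (chr16:57121624-57121651, plus): ccttctgaccCCGGAAGTggttctcccc
Mtx2 and Timmdc1 each held a further copy. The genes with the motif did not share a direction between KO and wildtype: Timm10 (-0.50), Mtx2 (-0.16) and Timm29 (-0.058) had log2 differences below 0, and Timm10b (0.29), Timmdc1 (0.054), Timm23 (0.037), Tomm70a (0.014) and Pmpcb (0.011) above 0. A match is a string of letters in this window and not a measured binding site.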

How the data were processed

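Articular cartilage RNA of 3 KO and 3 wildtype libraries was sequenced from strand-specific, oligo(dT)-selected libraries with molecular identifiers. The knocked-out gene is not reported here. The submitters' processing notes name cutadapt 1.9, HISAT2 2.0.4, UMI-tools, StringTie 1.3.4d, DESeq2 and edgeR, and do not give their roles. Whether counting used strand is not given in the sources used here. The authors deposited whole-number counts, treated as estimated counts, and FPKM values for 34709 genes. All per-sample columns were used (0 left out). Total counts ran from 52268311 to 63331135 per library, of which the members took 0.125% to 0.142%. A count of 0 allows up to 3 counts, at most 0.0574 CPM, for counting error only.

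The 15373 genes whose mean FPKM reached 0.5 were tested with edgeR 4.0.16 (R 4.3.3), using the quasi-likelihood test, TMM scaling and Benjamini-Hochberg adjustment over all of them, called at an adjusted p under 0.05. The same script was tested on simulated counts, where recovery of the simulated differences was required only at a low spread. Its power at the spread of these data was not judged. KO replicates 2 and 3 were averaged and rounded, since their squared differences were 5.65 to 7.27 times Poisson noise, against 13.1 or more for every other pair. Log2 differences are followed by their standard errors. DESeq2 1.42.0, limma 3.58.1 on log2(FPKM + 1) and log2(FPKM + 0.1), other filters and scalings, a replicate block and each library left out were alternatives. Gene positions follow GRCm38. Gene overlaps and copies came from GENCODE M21, promoters from RefSeq.

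Members and lists were chosen with earlier results of these data known. Values in every library are given for the highest member and that with the smallest p in each role group, for members with an unadjusted p under 0.05 and for paralog pairs. Timm9, Mtx1, Chchd4, the neighbouring genes and the partners were named after their values were seen.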

Additional observations from a re-analysis of the deposited data

How the results depend on the processing

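Of 499 log2 differences of members under alternatives, 444 kept their direction and side of the threshold, 54 took the other sign and 1 passed (Tomm6 with DESeq2, 0.65, adjusted p = 0.0320, range over its alternatives 0.0320 to 0.971). The cause was not tested. The 19 members that changed sign at least once had absolute log2 differences of at most 0.22. Timm10 and Timm17a kept their sign in every alternative run, with adjusted p-values of 0.136 to 0.707 and 0.198 to 0.820.

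Members called at an adjusted p under 0.05 numbered 0, except 1 with DESeq2. At an unadjusted p under 0.05 the count of 1 became 2 with the 6 libraries, a minimum of 5 FPKM, DESeq2 and either pseudocount in limma, 0 with copies summed, and 0 to 2 with a library left out. Over all tested genes, where edgeR called 0 (2106 at an unadjusted p under 0.05), 570 were called with the 6 libraries, 21 without a filter, 879 with DESeq2, 9 without KO replicates 2 and 3, and 0 to 352 with a library left out (352 without KO replicate 1). The members' median log2 difference was -0.10 when KO replicate 1 was dropped and 0.046 when wildtype replicate 2 was. By CPM, which is not per length, the wildtype shares became 47.2% for Timm17a (22.5% by FPKM), 45.0% for Timm8a1 and 29.4% for Timm10 (64.6%).

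Replicate numbers did not pair the samples: deviations of same-numbered libraries correlated at -0.145, -0.108 and -0.0581. With the replicate block on all 6 libraries, 0 genes and 0 members were called, 1 member had an unadjusted p under 0.05, and the log2 differences were -5.0e-05 for Timmdc1, -0.029 for Pam16 and -0.0060 for Pmpcb.

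Signs that changed were as follows. With the 6 libraries Pam16 was at -0.023 and Pmpcb at -0.0076. Tomm40l was at 0.0040 with median-of-ratios scaling, 0.027 without a filter and 0.0038 with DESeq2. Without a filter Timm9 was at 0.00085 and Tomm22 at 0.0038. With a minimum of 5 FPKM Timm23 was at -0.0076, Tomm70a at -0.034 and Pmpcb at -0.035, and Timm23 was at -0.070 with copies summed. With limma at pseudocounts of 1 and 0.1, Pam16 was at -0.0038 and -0.0047, Tomm70a at -0.0075 and -0.0091, Pmpcb at -0.0055 and -0.0061, and Chchd4 at -0.0023 and -0.0032. Without KO replicates 2 and 3, where the lone KO library is assumed to vary like wildtype, Tomm40l was at 0.11, Timm13 at 0.067, Timm22 at 0.075, Tomm22 at 0.10, Samm50 at -0.020, Tomm70a at -0.10, Dnajc19 at 0.023, Tomm7 at 0.10, Chchd4 at -0.018, Timm8b at 0.27 and Tomm20 at 0.037. With each library left out, values ran from -0.10 to 0.10 for Timmdc1, -0.14 to 0.046 for Timm44, -0.13 to 0.075 for Tomm40l, -0.050 to 0.10 for Timm23, -0.11 to 0.066 for Pam16, -0.28 to 0.046 for Timm13, -0.28 to 0.16 for Timm22, -0.081 to 0.031 for Timm9, -0.16 to 0.11 for Tomm22, -0.41 to 0.075 for Tomm7, -0.045 to 0.074 for Pmpcb, -0.13 to 0.020 for Grpel1, -0.16 to 0.19 for Timm17b and -0.53 to 0.13 for Timm8b.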
